A study of Mus musculus with 49 samples.

Results

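Prkcd encodes protein kinase C delta (PKCδ), and it was examined here beside 7 other genes of the protein kinase C family, Prkca, Prkcb, Prkce, Prkch, Prkci, Prkcq and Prkcz, in single late 2-cell mouse embryos. The 8 genes are 8 of the 54838 genes counted. Prkcd was chosen by its measured fall after loss of the TATA-binding protein (TBP), so its values in that comparison are given as a description with no test, while the other members were taken by family name. The study asked what TBP and the forkhead factor FOXJ3 do in the embryo during zygotic genome activation, the stage at which the embryo starts to transcribe its own genes.

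All embryos were of the genotype F1(C57BL/6JxCBA/H), and in the 4 groups a zygote received antibody first and, after 4 h in culture, Trim21 mRNA, then stayed in KSOM medium to 48 h post-hCG. This is Trim-Away, in which the ubiquitin ligase TRIM21 directs an antibody-bound protein to degradation. TBP LOF (loss of function) embryos received an anti-TBP antibody raised in mouse and mIgG CONTROL embryos received mouse IgG. FOXJ3 LOF embryos received an anti-FOXJ3 antibody raised in rabbit and rIgG CONTROL embryos received rabbit IgG. Every group, controls included, therefore carried a foreign antibody and mCherry-Trim21 mRNA. Polyadenylated RNA of each embryo was read at transcript 5′ ends by Smart-seq+5′, and 47 of 49 embryos passed the quality thresholds: 9 TBP LOF, 9 mIgG CONTROL, 16 FOXJ3 LOF and 13 rIgG CONTROL. The FOXJ3 and rIgG embryos were processed in 2 batches (9 and 7 FOXJ3 LOF, 7 and 6 rIgG CONTROL), whereas the TBP experiment shared a lysis buffer and has no batch label. The paper states at least 3 independent experiments, and the labels do not tie single embryos to an experiment. The replicate is 1 embryo, so p-values measure the spread between embryos.

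Protein kinase C enzymes are serine/threonine kinases that respond to lipid signals. Phospholipase C releases diacylglycerol, which activates the conventional isoforms (here Prkca and Prkcb) together with calcium and the calcium-independent isoforms (Prkcd, Prkce, Prkch, Prkcq) on its own, whereas the atypical isoforms (Prkci and Prkcz) need neither. PKC activity is known for its part in egg activation after fertilisation, and the atypical isoforms for setting up apical polarity with PAR proteins in the cleavage-stage embryo.

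Since TBP binds promoter DNA, the sequence upstream of the members' starts is shown for Prkcd and, for comparison, for the atypical isoforms. RefSeq (GRCm38.p6) gave 9 promoter entries for 6 members. Each line below holds the 250 bases before a start, 5′ to 3′ on the strand of the gene, and capitals mark every match to a motif on either strand. The motifs searched were the TATA box core (TATAAA), the GC box core (GGGCGG) and the CCAAT box.
Prkcd, chr14:30626209-30626458, minus strand: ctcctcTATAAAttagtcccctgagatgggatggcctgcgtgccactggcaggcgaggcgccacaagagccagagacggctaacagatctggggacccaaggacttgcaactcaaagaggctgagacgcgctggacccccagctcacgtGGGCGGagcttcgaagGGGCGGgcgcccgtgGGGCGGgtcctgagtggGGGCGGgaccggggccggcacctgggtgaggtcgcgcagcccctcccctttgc
Prkcd, chr14:30610311-30610560, minus strand: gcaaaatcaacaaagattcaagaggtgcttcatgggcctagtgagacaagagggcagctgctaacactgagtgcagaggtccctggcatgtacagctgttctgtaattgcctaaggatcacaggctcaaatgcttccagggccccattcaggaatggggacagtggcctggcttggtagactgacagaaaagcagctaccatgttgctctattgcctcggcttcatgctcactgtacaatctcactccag
Prkci, chr3:30995521-30995770, plus strand: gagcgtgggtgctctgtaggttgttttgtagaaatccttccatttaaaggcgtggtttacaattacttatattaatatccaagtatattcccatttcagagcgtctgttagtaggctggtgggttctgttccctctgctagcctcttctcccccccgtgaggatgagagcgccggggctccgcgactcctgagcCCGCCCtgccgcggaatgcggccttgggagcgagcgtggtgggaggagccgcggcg
Prkcz, chr4:155361429-155361678, minus strand: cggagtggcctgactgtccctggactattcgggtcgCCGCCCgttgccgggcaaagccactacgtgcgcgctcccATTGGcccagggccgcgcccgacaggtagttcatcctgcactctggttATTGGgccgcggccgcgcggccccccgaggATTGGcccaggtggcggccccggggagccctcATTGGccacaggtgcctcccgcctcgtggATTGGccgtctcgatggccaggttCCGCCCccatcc

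The outer Prkcd promoter held 4 copies of GGGCGG, starting 101, 85, 70 and 53 bases before the start, and 1 TATAAA that lay 244 bases before it. Its GC content was 67.6%. The inner Prkcd promoter held none of the motifs and had a GC content of 50.8% with 1 CpG. The Prkci promoter held 1 GGGCGG at 56 bases before its start, and the outer Prkcz promoter held 2 GGGCGG and 5 CCAAT. Of 32851 mouse promoters of this length, 12.4% held TATAAA, 32.7% GGGCGG and 33.9% CCAAT. On the sense strand, TATAA starting 40 to 20 bases before the start, the usual place of a TATA box, was present in 3.52% of all promoters and in none of the 9 member entries. A match to these letters is not evidence of binding, and its absence says only that the letters are not in the window.

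The Prkcd gene spans chr14:30595354-30626210 on the minus strand, with 5.54 kb of exon sequence and 13 annotated transcripts. Its 7 coding transcripts start at 4 positions. The annotation marks a start as supported by CAGE, a method that maps transcript 5′ ends, at 1 of these, position 30607822, where 4 of the transcripts start. The Prkcd promoters printed above lie at or near the other starts, which carry no such mark. Reads were counted per gene, so the values below do not tell which start was used. Of the members, Prkca shares exon sequence with Apoh on the other strand and Prkce with a predicted transcript, and both partners had 0 reads in all 49 libraries. The Prkcz pseudogene Prkcz2 had 5 reads in all 49 libraries.

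Levels are given as rpm, the reads of a gene scaled to 1000000 gene and transposon reads of its library. Libraries held 1103569 to 5434808 counted reads. The ratio of gene and transposon reads to reads of the ERCC spike-in RNAs, a measure of RNA per embryo, was 15.3, 21.8 and 36.4 (lowest, median, highest) in TBP LOF and 29.7, 34.4 and 44.0 in mIgG CONTROL. The TBP experiment was therefore scaled to the spike-ins, and the median log2 fold change of all 19356 features tested was −0.72, against 0.11 with TMM scaling, which assumes that most genes do not change. Where TMM scaling turned the direction of a member or of a called gene, its value is given beside the result. All groups were collected at the late 2-cell stage, and the cause of the lower median ratio to spike-in reads in TBP LOF was not tested. Tbp mRNA was 5.24, 61.5 and 118 rpm in TBP LOF and 96.2, 140 and 262 in mIgG CONTROL, and Foxj3 mRNA was 104, 139 and 219 rpm in FOXJ3 LOF and 59.7, 130 and 160 in rIgG CONTROL. Trim-Away acts on the protein, so neither mRNA checks the depletion. Markers of the late 2-cell stage summed to 439 to 1188 rpm in TBP LOF and 150 to 609 in mIgG CONTROL, with all 8 detected in both, and 6 oocyte markers summed to 1831 to 3359 and 763 to 2306 rpm. Tcstv3 made up most of the late 2-cell sum in TBP LOF (median 576 rpm). On the spike-in scale 2 of 8 late 2-cell markers were called higher and 0 lower, and 0 of 6 oocyte markers higher and 1 lower, with edgeR, where 29.7% of all features were lower and 1.34% higher. With TMM scaling 5 of the 8 late 2-cell markers were higher and 0 lower, and 4 of the 6 oocyte markers were higher and 1 lower, where 12.7% of all features were lower and 12.8% higher. The oocyte marker lower with both scalings was Zp3, a zona pellucida gene named after its value was seen (log2 fold change −1.83 on the spike-in scale, with an adjusted p of 0.00564 with TMM scaling). Of 10 cumulus and granulosa cell markers, Fshr and Inhba were at 0 in every group and the highest sum in any embryo was 24.9 rpm. Of the 3 tested, Tnfaip6 was called lower in TBP LOF (log2 fold change −2.46, edgeR adjusted p = 0.00865), and it did not pass with TMM scaling (−1.68, adjusted p = 0.101). Cyp19a1 (0.52) and Foxl2 (2.03) had the other sign and did not pass. With TMM scaling Foxl2 was called higher (2.77, edgeR adjusted p = 0.0409). Both had a median of 0 rpm in TBP LOF and in mIgG CONTROL. The highest sum of 6 blastocyst markers was 38.0 rpm. In Prkcd, the library furthest below its group was embryo 3 of batch 1 of rIgG CONTROL, and its values are given where they touch a result.

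In the 3 groups without TBP depletion, Prkcd was the most abundant of the 8 genes. Its level was 67.6, 110 and 154 rpm in mIgG CONTROL, 7.41, 110 and 192 rpm in rIgG CONTROL, and 86.6, 155 and 204 rpm in FOXJ3 LOF. In TBP LOF it was 6.38, 14.3 and 23.9 rpm. The TBP LOF embryos had 8 to 56 Prkcd reads each and the mIgG CONTROL embryos 100 to 641, so the highest TBP LOF embryo lay well below the lowest control. The lowest rIgG CONTROL embryo, embryo 3 of batch 1, had 16 Prkcd reads among 2214285 counted reads. The next lowest rIgG value was 52.0 rpm, in embryo 2 of batch 1. This embryo 2 also had the second lowest Tbp (55.3 rpm) and the lowest Foxj3 (59.7 rpm) of its group. Embryo 3 of batch 1 also had the lowest Prkcz (7.88 rpm) and Tbp (40.3 rpm) of its group, the highest oocyte marker sum (4108 rpm) and the highest late 2-cell marker sum (1047 rpm). The part of these differences in its Prkcd value was not tested.

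**Figure D1:**
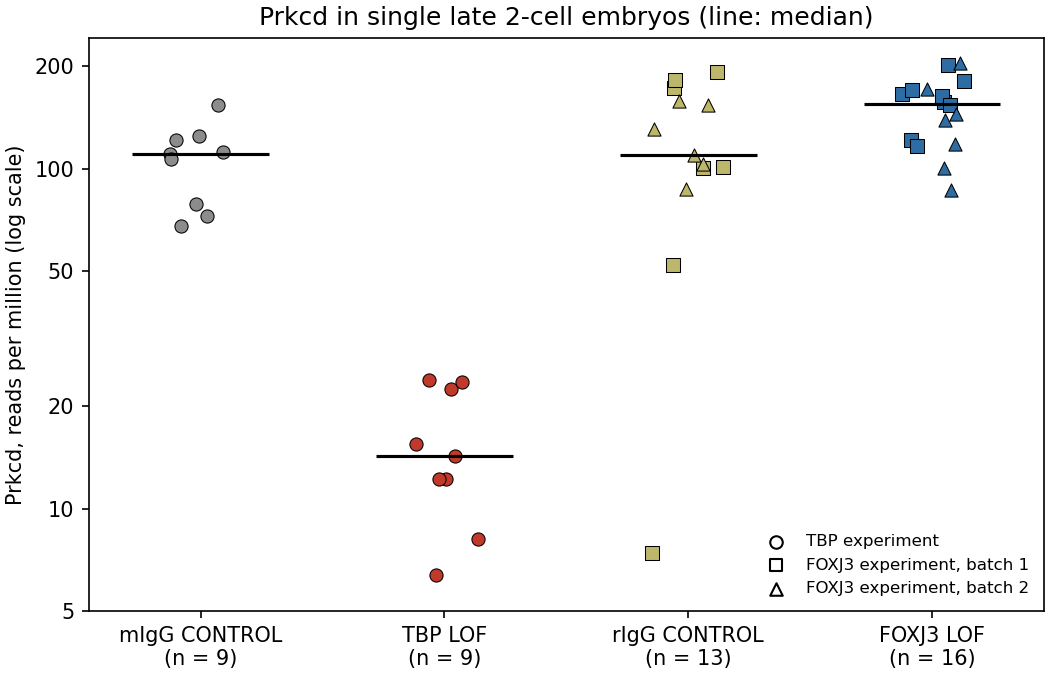
Prkcd in each embryo of the 4 groups, in rpm on a log axis, with 1 point per embryo, a line at the group median, circles for the TBP experiment and squares and triangles for batches 1 and 2 of the FOXJ3 experiment. The 9 TBP LOF embryos lie between 6.38 and 23.9, below all 9 mIgG CONTROL embryos (67.6 to 154), and 1 rIgG CONTROL embryo lies at 7.41.

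Divided by exon length so that genes can be compared, the mean levels in rIgG CONTROL ran from Prkcd (21.5 rpm per kb) through Prkcz (7.91), Prkci (5.59), Prkcq (2.00), Prkca (0.285), Prkch (0.167) and Prkcb (0.0330) to Prkce (0.00760). Because the reads mark 5′ ends, division by length may understate long genes, and the rank by rpm alone was the same. Each neighbouring pair was compared within embryos with an exact two-sided sign-flip permutation test over 13 embryos, with Benjamini-Hochberg adjustment over the 7 pairs. The order, and so the direction of each pair, was set on these same 13 embryos. The p-values therefore describe each difference beside its spread and do not test a preset order. Of the 7 pairs, 4 differed beyond the spread. Prkcd exceeded Prkcz in level per kb (adjusted p = 0.00057, exact permutation test), as did Prkci over Prkcq and Prkcq over Prkca with the same adjusted p, which comes from the smallest p these embryos allow, 0.000244. Prkca exceeded Prkch with an adjusted p of 0.0218 in the exact test, a call that was lost with a pseudocount of 1 in place of 0.1 (adjusted p = 0.0680). Prkcz and Prkci did not differ beyond the spread (adjusted p = 0.191, exact permutation test), nor did Prkch and Prkcb (0.0574) or Prkcb and Prkce (0.146). Without embryo 3 of batch 1, Prkcz also exceeded Prkci (adjusted p = 0.0260, exact permutation test), which made 5 pairs. In batch 2 alone 0 of 7 passed. The 3 pairs led by Prkcd, Prkci and Prkcq had the smallest p that 6 embryos allow, 0.03125, which was 0.0729 after adjustment in the exact test.

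The same 4 genes led in mIgG CONTROL and FOXJ3 LOF, in the same order. Mean levels were 19.01, 7.36, 4.11 and 1.38 rpm per kb for Prkcd, Prkcz, Prkci and Prkcq in mIgG CONTROL, and 27.0, 6.86, 6.36 and 2.34 rpm per kb in FOXJ3 LOF. In TBP LOF the order was another: Prkci came first at 4.25 rpm per kb, followed by Prkcz at 3.86, Prkcd at 2.78, Prkcq at 1.67 and Prkch at 0.800. By mean rpm, not divided by length, Prkcz (24.4) came before Prkci (23.6) in TBP LOF. The TBP LOF order is described without a test because Prkcd was chosen on it.

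**Figure D2:**
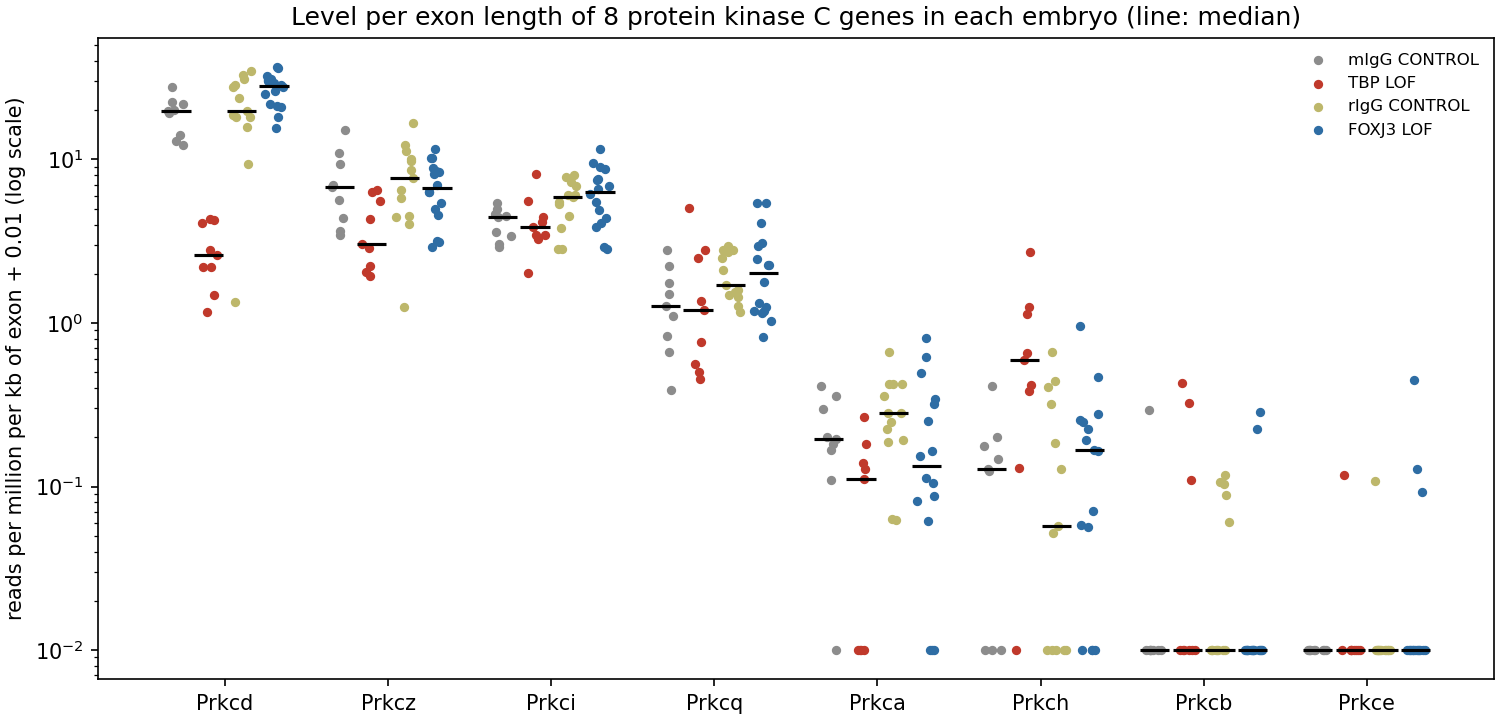
Level of each of the 8 members in each embryo, by group, in rpm per kilobase of exon plus 0.01 on a log axis, with a line at each median, so embryos without reads lie at the bottom. Prkcd leads in 3 groups (means of 19.01, 27.0 and 21.5) and takes the third place in TBP LOF (2.78), where Prkci (4.25) and Prkcz (3.86) lie above it.

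Among the calcium-independent isoforms, Prkcd, a kinase known for roles in apoptosis and stress signalling, was far lower in TBP LOF on the spike-in scale. Spike-in normalised counts were 10.3, 19.3 and 54.0 in TBP LOF and 146, 217 and 403 in mIgG CONTROL. All 9 TBP LOF embryos lay below all 9 controls, in a comparison in which 29.7% of all features were called lower. The mean of TBP LOF was 0.0974 of the control mean on this scale and 0.146 in rpm. Because Prkcd was chosen on this comparison, its fitted log2 fold change is given without a test. It was −3.38 (SE 0.34), beside the median of −0.72 over all features. It was −2.52 with TMM scaling, and it lay between −3.62 and −3.25 when each embryo was left out in turn.

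Prkch (PKCη), known from epithelial cells, had the opposite sign. It was 0, 4.38 and 20.4 rpm in TBP LOF and 0, 0.890 and 3.04 rpm in mIgG CONTROL. Groups overlapped, but 6 of 9 TBP LOF embryos were above every control in rpm, and 4 of 9 on the spike-in scale. The log2 fold change was 1.86 (SE 0.70, 95% interval 0.47 to 3.26, edgeR quasi-likelihood adjusted p = 0.0340). Prkch was 1 of the 5 paralogs tested that was called higher, where 1.34% of all features were. These are low counts, with 0 to 35 reads per TBP LOF embryo and 0 to 16 per control. The adjusted p ranged from 0.00361 (TMM scaling, log2 fold change 2.67) to 0.141 over the alternatives. The call was lost when 1 of 7 embryos was left out. In TBP LOF these were embryo 9, which held the 35 reads (log2 fold change 1.45, adjusted p = 0.141 with edgeR), embryo 1 (adjusted p = 0.0577) and embryo 10 (0.0555). In mIgG CONTROL they were embryos 3, 5, 6 and 8 (adjusted p = 0.0557, 0.0593, 0.0593 and 0.0505). It was not tested when edgeR's own filter on low counts replaced the filter used here.

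Prkcq (PKCθ), known for its role in T cell receptor signalling, was 3.16, 8.39 and 35.5 rpm in TBP LOF and 2.67, 8.95 and 19.7 rpm in mIgG CONTROL. The groups overlapped, with 1 TBP LOF embryo above every control in rpm and, on the spike-in scale, 1 above and 2 below every control. The log2 fold change was −0.19 (SE 0.47, 95% interval −1.12 to 0.74, edgeR adjusted p = 0.812). It lay between −0.85 and −0.05 when each embryo was left out, with the lowest value (adjusted p = 0.162) without TBP LOF embryo 8, the embryo at 35.5 rpm. With TMM scaling its sign turned to 0.43 (adjusted p = 0.490). Prkce (PKCε) was at the limit of detection, with 1 read in 1 of 9 TBP LOF embryos and 0 reads in the 9 mIgG CONTROL embryos together, which allows up to 0.159 rpm for counting error alone. It did not pass the filter on low counts and was not tested.

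Of the conventional isoforms, Prkca (PKCα), which is expressed in many tissues, was 0, 0.904 and 2.29 rpm in TBP LOF and 0, 1.67 and 3.62 rpm in mIgG CONTROL. Of the 9 TBP LOF embryos, 8 lay below the control median, although the ranges overlapped. The log2 fold change of −1.84 (SE 0.83, 95% interval −3.50 to −0.18) did not pass the threshold (edgeR adjusted p = 0.0867). It did with DESeq2 (−1.96, adjusted p = 0.0485) and without TBP LOF embryo 6 (−2.22, edgeR adjusted p = 0.0495), and the adjusted p reached 0.520 among the other alternatives. Prkcb (PKCβ) had reads in 3 of 9 TBP LOF and 1 of 9 mIgG CONTROL embryos, up to 6 reads each, and was not tested.

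Prkcz (PKCζ), an atypical isoform of the apical polarity complex, was the paralog that was lower. Its level was 12.3, 19.1 and 41.3 rpm in TBP LOF and 21.7, 42.9 and 95.2 rpm in mIgG CONTROL. The ranges overlapped, yet all 9 TBP LOF embryos lay below the control median, and 6 of 9 lay below every control on the spike-in scale. The highest controls were embryos 8, 9 and 10, at 69.0, 59.2 and 95.2 rpm. These were also the deepest control libraries, with 3462322, 5266263 and 1944080 gene and transposon reads against 1123067 to 1597167 in the other controls. The deepest TBP LOF library, embryo 11 with 3913715, had the lowest Prkcz level of its group, and the part of depth in the difference was not tested. The log2 fold change was −1.60 (SE 0.35, 95% interval −2.31 to −0.90, edgeR adjusted p = 0.000248). Prkcz was thus 1 of the 5 paralogs tested that was called lower, where 29.7% of all features were. With TMM scaling the log2 fold change was −0.70 and did not pass (adjusted p = 0.0673). It stayed between −1.73 and −1.36 over the 18 fits without 1 embryo.

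Prkci (PKCι), the other atypical isoform and the partner of PAR6, was 11.2, 21.3 and 45.0 rpm in TBP LOF and 16.1, 24.6 and 30.2 rpm in mIgG CONTROL. Of the 9 TBP LOF embryos, 1 was below and 2 were above every control in rpm, and 4 were below and 0 above on the spike-in scale. The log2 fold change was −0.56 (SE 0.34, 95% interval −1.24 to 0.11, edgeR adjusted p = 0.216), and it turned to 0.30 with TMM scaling (adjusted p = 0.397). Its spread was wider in TBP LOF (SD 9.62 rpm) than in mIgG CONTROL (SD 4.98 rpm), a difference in spread that was not tested. Together, 2 of the 5 paralogs tested were called, 1 in each direction, and Prkca, Prkci and Prkcq were not.

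**Figure D3:**
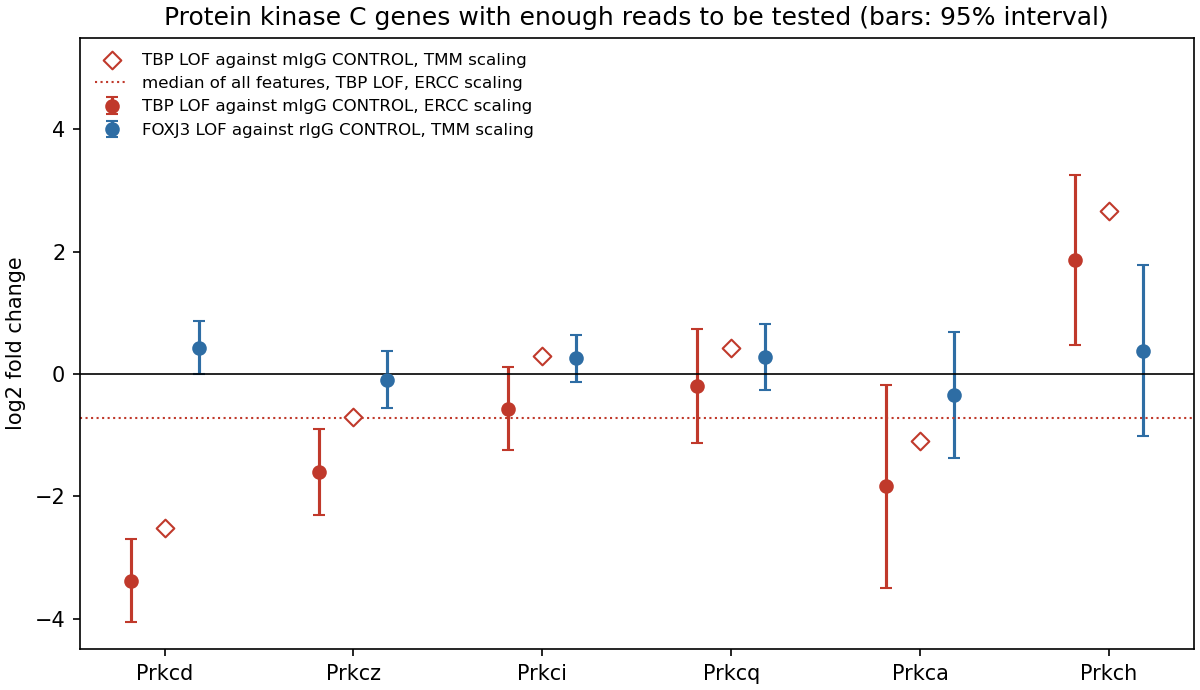
Log2 fold change of each member with enough reads in the TBP and FOXJ3 experiments, with bars for 95% intervals. The bar of Prkcd in TBP LOF is not a test, since Prkcd was chosen on that comparison. Open diamonds give the TBP values with TMM scaling, without intervals, and the dotted line the median of all features. Prkcd lies furthest from 0 in TBP LOF (−3.38), Prkch lies above 0 (1.86), and the FOXJ3 values range from −0.34 to 0.43.

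The FOXJ3 experiment tests Prkcd in embryos that played no part in its choice. Prkcd was 86.6, 155 and 204 rpm in FOXJ3 LOF and 7.41, 110 and 192 rpm in rIgG CONTROL. The groups overlapped, with 14 of 16 FOXJ3 LOF embryos above the control median. The log2 fold change, with batch in the fit, was 0.43 (SE 0.21, 95% interval 0.00 to 0.86, p = 0.0485, edgeR adjusted p = 0.872). It was 0.59 in batch 1 and 0.22 in batch 2, and 0.32 (adjusted p = 0.947) without embryo 3 of batch 1.

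No member was called in the FOXJ3 comparison. With edgeR 0 of 6 tested members passed and 1 (Prkcd) had an unadjusted p under 0.05. With DESeq2 0 passed. Of all 19517 features, 0.0102% were called. Prkcz was 18.4, 42.3 and 73.3 rpm in FOXJ3 LOF and 7.88, 48.4 and 106 rpm in rIgG CONTROL, with a log2 fold change of −0.09 (SE 0.23, 95% interval −0.56 to 0.37). Prkci was 15.7, 35.2 and 64.0 rpm against 15.6, 32.8 and 44.4 rpm, with a log2 fold change of 0.26. Prkcq was 5.77, 14.2 and 38.4 rpm against 8.24, 12.03 and 20.9 rpm, with a log2 fold change of 0.28. The ranges of these 3 genes overlapped between groups. Prkch (0, 1.18 and 7.12 rpm in FOXJ3 LOF, 0, 0.359 and 4.94 in rIgG CONTROL) had a log2 fold change of 0.38, and Prkca (0, 1.11 and 7.21 rpm, against 0.475, 2.43 and 5.89) one of −0.34. Adjusted p-values of these 5 genes were 0.923 to 0.984 with edgeR. Prkcb had reads in 2 of 16 FOXJ3 LOF and 5 of 13 rIgG CONTROL embryos, and Prkce in 3 of 16 and 1 of 13. A different effect in the 2 batches was called for 0 of 6 members and for 0% of all 19517 features, with 0 members and 1553 features at an unadjusted p under 0.05.

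To ask whether a paralog responded differently to the 2 depletions, the TBP LOF effect minus the FOXJ3 LOF effect was tested in a joint fit scaled to the spike-ins. Of the 5 paralogs tested 1 passed, against 28.9% of all 19657 features, whose median difference was −0.89. The paralog was Prkcz, with a difference of −1.72 on the log2 scale (SE 0.45, 95% interval −2.62 to −0.82, edgeR adjusted p = 0.00200). With TMM scaling it was −0.59 (adjusted p = 0.273). The rise of Prkch in TBP LOF was not shown to differ from FOXJ3 LOF, since its difference was 1.19 (SE 1.09, 95% interval −0.97 to 3.36, edgeR adjusted p = 0.456). Prkci (−0.98, adjusted p = 0.0716), Prkcq (−0.50, 0.556) and Prkca (−1.58, 0.221) also did not pass in edgeR. With TMM scaling the signs turned for Prkci (0.061) and Prkcq (0.17). For Prkcd, given without a test, the difference was −4.05, or −2.94 with TMM scaling.

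The share of Prkcd among the reads of the 8 members does not depend on the scaling between embryos. In TBP LOF it was 10.3%, 20% and 26.5%. In mIgG CONTROL it was 46.7%, 54.2% and 69.4%, so the groups did not overlap and the family's mix of transcripts differed, here as a description. Other members made up more of the reads: Prkci had a mean share of 30.1% ± 12.3 (SD, n = 9) in TBP LOF and 12.6% ± 3.08 in mIgG CONTROL, and Prkch reached 28.9% in 1 TBP LOF embryo but at most 1.37% in the controls. Prkcz had mean shares of 28.8% ± 9.57 in TBP LOF and 23.7% ± 6.91 in mIgG CONTROL. Since the shares of an embryo add up to its whole, a lower Prkcd share by itself raises those of other members. In mean rpm Prkci was 23.6 in TBP LOF and 22.8 in mIgG CONTROL, and Prkcz was 24.4 and 46.5.

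In the FOXJ3 experiment the Prkcd share was 48.6%, 58.7% and 69.8% in FOXJ3 LOF and 11.03%, 56.2% and 65.8% in rIgG CONTROL. The mean was 8.83 percentage points higher in FOXJ3 LOF (two-sided permutation test within batches, p = 0.0220). The groups overlapped. The difference was 14.2 points in batch 1 (permutation p = 0.0271) and 2.36 points in batch 2 (permutation p = 0.483). Without embryo 3 of batch 1, in which Prkcd held 11.03% of the reads, it was 5.44 points (permutation p = 0.0558). The next lowest rIgG CONTROL share was 37.5%, in embryo 2 of batch 1, which was not left out. The pooled difference thus rested on batch 1 and on embryo 3 of its controls.

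**Figure D4:**
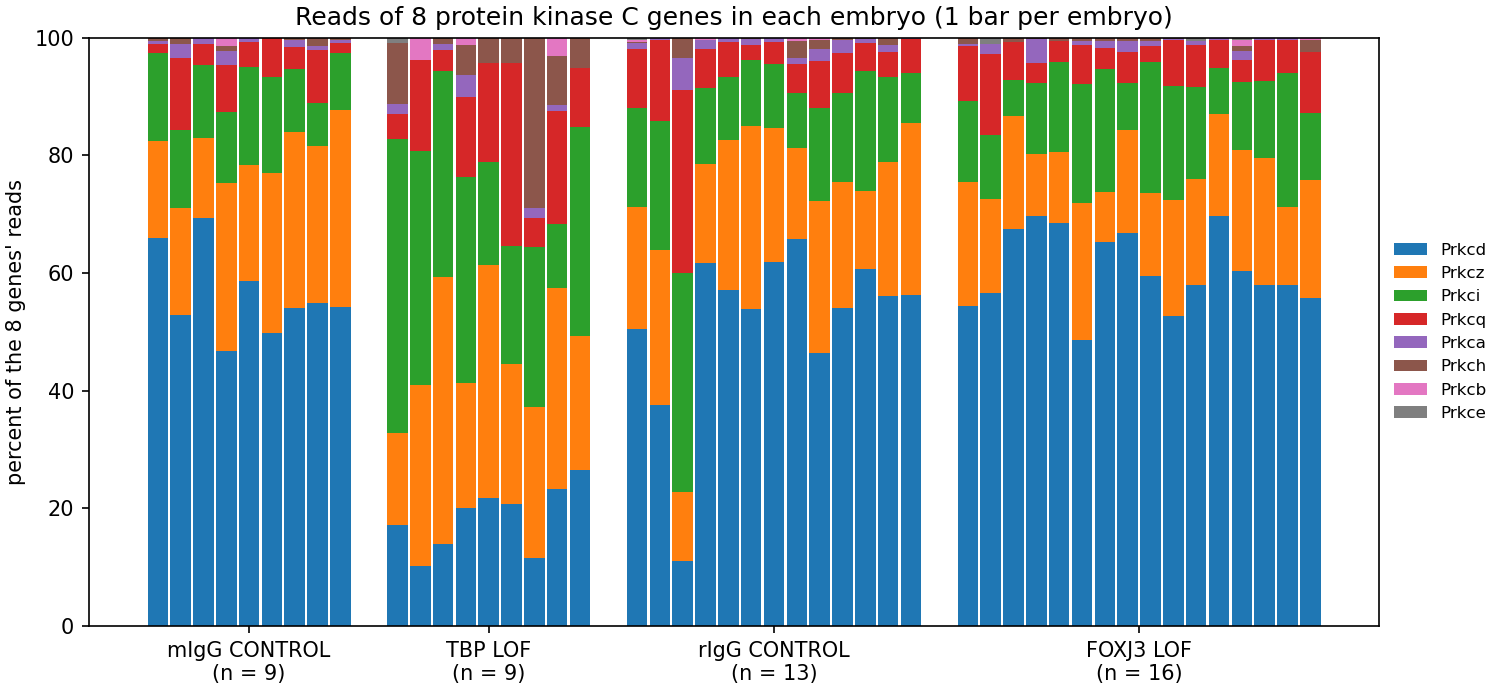
Share of each member among the reads of the 8 members, in percent, as 1 stacked bar per embryo, by group. Prkcd makes up 10.3% to 26.5% in TBP LOF and 46.7% to 69.4% in mIgG CONTROL, and Prkci, Prkcz, Prkcq and Prkch fill the rest in TBP LOF.

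The wider pathway was described from 8 lists with 86 genes, of which 77 were tested in the TBP experiment. Of these, 21 (27.3%) were called lower and 1 (1.30%) higher with edgeR, close to the 29.7% and 1.34% of all features. The median log2 fold change was −0.31, beside −0.72 over all features. With TMM scaling 9 (11.7%) were lower and 18 (23.4%) higher, with a median of 0.50 beside 0.11, where 12.7% of all features were lower and 12.8% higher, so the split between lower and higher calls depended on the scaling. In the FOXJ3 experiment 0 of 72 tested pathway genes were called with edgeR, and 2 had an unadjusted p under 0.05.

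Among the closest relatives of the members, 3 of 7 tested were lower and 0 higher. Pkn3, a PKC-related kinase, was lower (log2 fold change −1.95, SE 0.43, edgeR adjusted p = 0.000297), and its relative Pkn2 was not (−0.07, adjusted p = 0.893). With TMM scaling 3 of the 7 were lower and 1 higher, the latter being Pkn2 (0.79, edgeR adjusted p = 0.00206). Prkd2, a protein kinase D named after its value was seen, was also lower (−2.58).

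Upstream of PKC, 2 of 10 tested phospholipase C genes were lower and 0 higher, with a list median of 0.07. With TMM scaling 2 were lower and 2 higher, with a median of 0.80. Those higher, named after their values were seen, were Plcb3 (1.27) and Plcd1 (3.00). Plcd4 went from 17.2, 25.8 and 36.2 rpm in mIgG CONTROL to 0.798, 5.56 and 22.1 rpm in TBP LOF (log2 fold change −2.41, SE 0.43, edgeR adjusted p = 1.10e-05). The ranges overlapped at their edges. Plce1 (0.01, adjusted p = 0.988) and Plcb1 (0.24, adjusted p = 0.781) did not pass, and the other lower gene, named after its value was seen, was Plcd3 (−3.23). Among diacylglycerol kinases, which remove the lipid that activates PKC, 1 of 8 was lower. That gene was Dgke (−0.96, SE 0.30, edgeR adjusted p = 0.00932), which was −0.15 with TMM scaling (adjusted p = 0.608). Dgkd (−0.41) and Dgka (−1.18) did not pass.

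PKC needs chaperones and phosphorylation to mature, and 5 of 14 genes of that list were lower and 0 higher, with a median of −0.59. The chaperones Hsp90ab1 (−1.22, SE 0.30, edgeR adjusted p = 0.00109) and Hsp90aa1 (−1.34, SE 0.29, adjusted p = 0.000226) were among them, and with TMM scaling they were −0.40 and −0.50 and did not pass. Pdpk1, the kinase that phosphorylates the activation loop, did not pass (−0.33, adjusted p = 0.457). The co-chaperone Cdc37 (−2.70) and the phosphatase subunit Ppp2ca (−1.20), named after their values were seen, were also lower. With TMM scaling 1 of the 14 was lower and 2 were higher. Of the scaffolds, Rack1, which binds active PKC, was 8.73, 31.1 and 85.7 rpm in TBP LOF and 42.7, 79.3 and 118 rpm in mIgG CONTROL. It was the 1 of 5 scaffolds called lower (−1.88, SE 0.35, edgeR adjusted p = 1.89e-05; list median −0.34), whereas Akap12 (−0.34) and Sqstm1 (0.39) did not pass. With TMM scaling 1 of the 5 was lower and 1 higher, the latter being Sqstm1 (1.31, edgeR adjusted p = 0.0335).

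The atypical isoforms act with polarity proteins, and of 14 such genes 3 were lower and 1 higher, with a median of 0.04. Cdc42, the GTPase that activates the PAR6 complex, was lower (−1.33, SE 0.30, edgeR adjusted p = 0.000365). The scaffold Pard3 (0.08, adjusted p = 0.872) and the kinase Mark2 (0.38, adjusted p = 0.342) did not pass. The other called genes, named after their values were seen, were Crb3 (−1.24) and Llgl2 (−0.76, turning to 0.11 with TMM scaling), both lower, and Pard6g (1.57), higher. With TMM scaling Cdc42 was −0.47 (adjusted p = 0.104), and 0 of the 14 were lower and 7 higher, Pard3 (0.94) and Mark2 (1.20) among them. Of 10 other diacylglycerol receptors 3 were lower and 0 higher, with a list median of −0.83. These were the RAS activators Rasgrp3 (−4.32), Rasgrp2 (−2.80) and Rasgrp4 (−2.22), named after their values were seen. Unc13c (−0.18), Unc13b (−0.32) and Chn1 (0.63) did not pass. With TMM scaling 2 of the 10 were lower and 2 higher, with a median of 0.21. Rasgrp2 then lost its call (adjusted p = 0.179), and Chn1 (1.48) and Unc13c (0.63) were higher with edgeR. Of 9 PKC substrates 3 were lower and 0 higher (median −0.25): the RAF inhibitor Pebp1 (−1.29, edgeR adjusted p = 0.000360), the lamin Lmnb1 (−1.06, edgeR adjusted p = 0.0149) and, named after its value was seen, the myosin phosphatase inhibitor Ppp1r14a (−2.83). Add1 (−0.10) did not pass. With TMM scaling 0 of the 9 substrates were lower and 3 higher.

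**Figure D5:**
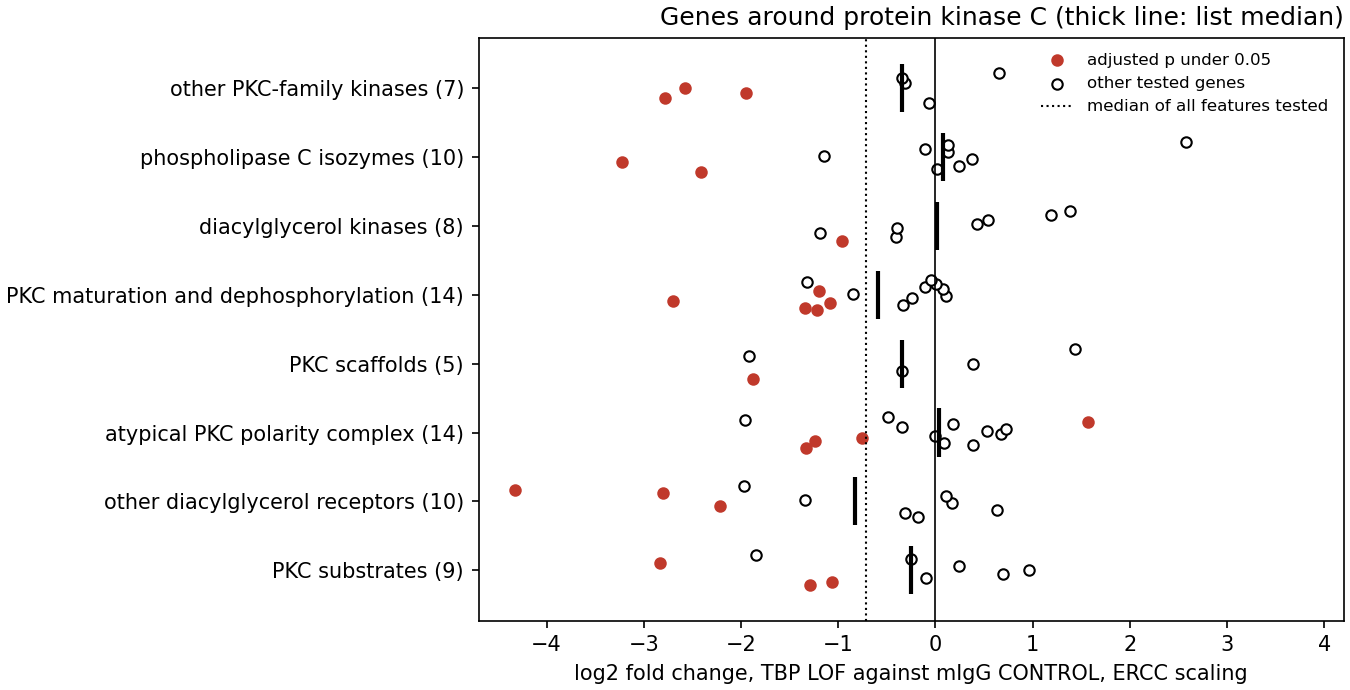
Log2 fold change in TBP LOF of every tested gene in the 8 pathway lists, with the number of tested genes in brackets, filled points for called genes, the list median as a thick bar and a dotted line at the median of all features (−0.72). List medians lie between −0.83 and 0.07, and the called genes are 21 lower and 1 higher.

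The genes around Prkcd did not share its size of change. Within 250 kb lay 14 other genes, of which 8 were tested, with a median log2 fold change of 0.27. Among them 1 was lower and 0 higher, beside 29.7% and 1.34% of all features: Tkt, which encodes transketolase (−2.22, SE 0.40, edgeR adjusted p = 1.37e-05), named after its value was seen.

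Across the 47 embryos, the genes whose log2 levels were most like Prkcd among 7020 genes with a mean of at least 10 rpm were Atg3 (Pearson r = 0.93), Ruvbl1 (0.93), Uspl1 (0.93), Bbs2 (0.93) and Fcf1 (0.93), where the median over all genes was 0.43. These values are a description, since the embryos share groups, batches and library depth. With the mean of each group and batch subtracted, the leading genes were Eif3g (r = 0.90), Wipi2 (0.87), Ctsb (0.86), Cd63 (0.86) and Ctsc (0.86), beside a median of 0.29. Among the paralogs, Prkcz was closest to Prkcd in both settings (r = 0.67 and 0.70), and Prkci (0.33 and 0.13) and Prkcq (0.24 and 0.08) were farther away. Embryo 3 of batch 1 of rIgG CONTROL, the lowest of its group in Prkcd (7.41 rpm) and Prkcz (7.88 rpm), was kept in both settings. Its weight in these r values was not tested.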

How the data were processed

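The authors sorted 5′ reads by adaptor, trimmed them with Trimmomatic, aligned them with STAR 2.7.11a to GRCm38 with the mCherry-Trim21 construct added and endogenous Trim21 masked, and kept the second read of each pair. The deposited expected counts are whole-number reads per gene, spike-in and transposon family from TEcount, 1 table per embryo, not normalised. No source used here states the strand setting. Gene counts in the deposited TElocal tables did not differ from them (0 genes), and transposon loci were not used.

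Embryos with at least 500000 reads, at least 1000 genes, at most 10% mitochondrial and at most 15% spike-in reads were kept, as in the study. This left out mIgG CONTROL embryo 7 (464300 reads) and FOXJ3 LOF embryo 7 of batch 1 (308682 reads). Groups came from the sample titles. Features seen (1 read or more) in no fewer than 25% of embryos were tested two-sided with edgeR 4.0.16 (R 4.3.3, quasi-likelihood, Benjamini-Hochberg over all genes and transposon families, threshold 0.05). The TBP experiment used median-of-ratios size factors from 42 spike-ins, and the FOXJ3 experiment TMM factors with batch as a term. The joint fit of the difference used spike-in factors. The rpm are reads scaled to 1000000 gene and transposon reads. Order tests used log2(rpm per kb + 0.1) and likeness log2(rpm + 1). The permutation test of the share drew 100000 resamples within batches. Scripts were tested on simulated data. Floors cover counting error only, since the reads carry no molecular identifiers.

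Named genes were the 8 members, Tbp, Foxj3, the 3 tested genes of each list with the highest mIgG CONTROL mean, and the 5 genes most like Prkcd in each setting. Others are said to be named after their values were seen. Some list genes counted here are not reported here by name. The members and lists were chosen with earlier results of these data known, so the lists give no independent support. Symbols matched 54809 of 54838 gene IDs, and coordinates are from the GENCODE annotation of GRCm38. The alternatives were TMM or spike-in scaling, DESeq2 1.42.0, no filter, edgeR's filter, all embryos, single batches, a replicate block and leaving out each TBP or mIgG embryo. Leaving out rIgG CONTROL embryo 3 of batch 1 was added after seeing the data.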

Additional observations from a re-analysis of the deposited data

Results flagged for a closer look

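In TBP LOF the highest Prkch embryo, embryo 9, reached 20.4 rpm, with the next at 9.32 rpm, a gap larger than Dixon's limit for 9 embryos. In mIgG CONTROL the highest Prkch embryo, embryo 9, was at 3.04 rpm and the next at 1.45 rpm. These were 2 of 14 groups of values examined in this way, and chance alone gives about 1 in 20. The Prkcz effect differed between the depletions, by −1.72 on the log2 scale (TBP LOF effect minus FOXJ3 LOF effect, edgeR adjusted p = 0.00200), a difference that did not pass with TMM scaling.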

How the results depend on the processing

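The limits are the scaling, low counts and 1 control embryo. Of the 5 paralogs tested in TBP LOF, 2 were called, against 1 with TMM scaling (Prkch), 1 with edgeR's filter, which left Prkch untested, and 1 to 3 over the 18 fits without an embryo. The number that differed between the depletions was 1, and 0 with TMM scaling. The 4 neighbouring pairs that differed in rIgG CONTROL became 0 in batch 2, with 6 embryos. There Prkcd over Prkcz, Prkci over Prkcq and Prkcq over Prkca held in all 6 embryos, and Prkca over Prkch in 4. The first 3 pairs had the smallest p that 6 embryos allow in the exact permutation test, 0.03125, and still did not pass adjustment. The count of 0 therefore cannot tell a lost order from too few embryos. The FOXJ3 gain in Prkcd share of 8.83 points was 2.36 in batch 2 and 5.44 without rIgG CONTROL embryo 3 of batch 1. Signs turned with TMM scaling for Prkci (0.30) and Prkcq (0.43) in TBP LOF and for the differences of Prkci (0.061) and Prkcq (0.17). In FOXJ3 LOF, where none was called, signs turned for Prkca in batch 1 (0.26), for Prkch in batch 2 (−0.58) and under the block (−0.16), and for Prkcz in batch 2 (0.030), under the block (0.032) and with spike-in scaling (0.12). The batch difference of Prkcz was −0.015 with spike-in scaling. The cause of these changes was not tested. Over the whole TBP experiment, features called lower and higher numbered 5758 and 259, against 2451 and 2486 with TMM scaling.

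The embryo numbers were checked as a replicate block. Same-numbered embryos correlated by −0.06 to 0.16 in 7 TBP pairs and by −0.24 to 0.28 in 12 FOXJ3 pairs, and an embryo was closest to its own number in 0 of 7 and 4 of 12 pairs, so the numbers do not pair embryos. With the block 2 TBP paralogs and 0 FOXJ3 members were called, Prkcd was −3.46 in TBP LOF, and 4623 features were called lower and 280 higher.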
